A study of Mus musculus with 64 samples.

Results

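The 5 genes known from Cajal-Retzius cells, Reln, Trp73, Lhx1, Lhx5 and Calb2, were followed through 64 single cells, as 5 of the 23313 genes in the deposited values. They were chosen by symbol, and all 5 were found at 1 TPM (a transcript abundance corrected for transcript length and library size) or more in at least 1 cell, as were 63.1% of all genes, and 3 of them in at least 6 cells, as were 47.7%. Reln and Trp73 were found together: each of the 9 cells with Trp73 also held Reln, at 31.6 to 1909 TPM, and 7 of these 9 held Calb2. Calb2 was split, since the remaining 7 of its 14 cells held neither Reln nor Trp73 at that level. Lhx1 was seen in 4 cells, all of them with Reln, and Lhx5 in 3 cells at 2.18 TPM or less.

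All cells were sorted as DCX-dsRed+ from microdissected dentate gyrus of Dcx-dsRed transgenic mice aged 6 to 7 weeks, in which the doublecortin promoter drives a red fluorescent protein, and each was captured and lysed on a microfluidic chip. The labels call each library an immature neuron, and give 1 group with no treatment, stage or animal. The 64 cells were therefore treated as 1 biological sample, and every count, ratio and correlation below describes these cells, with no p-value.

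Cajal-Retzius cells are early-born neurons of the outermost layer of the developing cortex and hippocampus. In mice many disappear after birth, while some remain around the hippocampal fissure and in the outer molecular layer of the dentate gyrus. They secrete reelin, the large glycoprotein encoded by Reln, which binds the receptors encoded by Vldlr and Lrp8 on other neurons and leads to phosphorylation of the adaptor encoded by Dab1. Trp73 encodes p73, a transcription factor of the p53 family that Cajal-Retzius cells need to survive in mice. Lhx1 and Lhx5 encode LIM-homeodomain transcription factors, and Calb2 encodes calretinin, a calcium-binding protein. Reln is also made by GABAergic interneurons, and Calb2 by interneurons, mossy cells and newborn granule neurons.

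Depth, estimated from the lowest values, ranged from 470309 to 4088583 reads in a cell, and 3535 to 7480 genes were detected per cell, detection meaning 1 TPM or more throughout. The libraries fell into 21 deeper and 43 shallower ones with no library between 1338084 and 1932145 reads. One read was worth 0.0500 to 0.498 TPM for the long Reln transcript and 0.409 to 4.07 TPM for the short Calb2 transcript, so the same TPM rests on more reads for Reln. The label of immature neuron was not borne out by the transcripts of all cells. Dcx was detected in 24 of 64, with a median of 0.405 TPM over all cells, which is above 0 but under the detection level. Of 12 listed immature neuron genes, only Sox11, in 58 cells, was detected in at least 50% of cells. Of 10 pan-neuronal genes, 8 were. Clusters named from oligodendrocyte markers and from stem cell and astrocyte markers held 33 and 11 cells. The joint detections, the correlation of Reln with Trp73 and the genes found with Trp73 are given with and without those clusters, and the other results over all 64 cells.

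Reln was detected in 16 of 64 cells (25%, exact Clopper-Pearson 95% interval 15.0% to 37.4%, counting error only). Among these 16 the level spanned 1.50 to 1909 TPM with a median of 94.7 TPM, and cell 68 stood above all others. Cell 54 followed at 307 TPM, cell 60 at 224 TPM, cell 5 at 194 TPM and cell 14 at 192 TPM. The lowest 3 were cell 38 at 2.97 TPM, cell 21 at 2.11 TPM and cell 45 at 1.50 TPM, which were about 17.2, 42.2 and 4.81 reads. A gap separated these from the other 13 cells, none of which was under 31.6 TPM. A further 10 cells had Reln at 0.0500 to 0.670 TPM, which was about 0.960 to 4.72 reads, and in the rest it was listed at 0.

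Trp73 was detected in 9 cells (14.1%, 6.64% to 25%) and was listed at 0 in the other 55. Its level was 548 TPM in cell 51 and 379 TPM in cell 68, while the other 7 cells lay between 1.31 and 27.4 TPM. In cell 5, the lowest, it rested on about 2.91 reads. Reln in the same 9 cells had a median of 192 TPM, and the highest Reln level outside them was 99.5 TPM, in cell 61. The ranges overlapped, because cells 51, 63 and 69 had Reln at 42.7, 31.6 and 98.3 TPM.

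The authors' files give Trp73 as 3 RefSeq transcripts, which start at different promoters. One starts at the upstream promoter, which gives the protein with its transactivation domain (TAp73), and it was listed at 0 in all 64 cells, which allows up to 4.69% of cells with a read of it (3 counts of the total). That limit is not one on cells that express it, since most cells with Trp73 held few reads of the gene. The others start at an internal promoter, 42702 bases downstream in RefSeq's promoter table and 43035 in GENCODE, which has the same internal start and an earlier upstream one. The internal promoter gives a protein without that domain (deltaNp73). The shorter of these was above 0 in all 9 cells with Trp73, and in all but cell 63 it held the whole Trp73 value. In cell 63 it had 1.31 TPM and the longer had 8.33 TPM. The division of reads among transcripts that share exons was made by the submitters' tools, and the reads on the first exons were not inspected. RefSeq's promoter table (GRCm38.p6) holds 4 promoters of 3 members, and the 150 bases before each Trp73 start are shown because the values fall to the internal start only. Capitals mark CG dinucleotides. The internal stretch is chr4:154097174-154097323 and the upstream stretch chr4:154139876-154140025, both on the minus strand. The upstream stretch comes before the start in RefSeq's promoter table, but lies downstream of the earlier GENCODE start at 154140208.
Trp73 internal start: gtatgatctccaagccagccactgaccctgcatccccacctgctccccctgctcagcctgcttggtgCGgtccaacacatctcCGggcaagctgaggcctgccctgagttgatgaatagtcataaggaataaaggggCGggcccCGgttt
Trp73 upstream start: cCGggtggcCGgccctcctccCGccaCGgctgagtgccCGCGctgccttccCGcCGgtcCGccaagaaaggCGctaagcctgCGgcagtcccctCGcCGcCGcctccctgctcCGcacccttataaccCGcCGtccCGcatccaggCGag

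The stretch at the internal start held 4 CG dinucleotides and a GC content of 59.3%, against 19 and 74.7% at the upstream start. The median over 32851 promoters was 4 CG dinucleotides and 54.0% GC, and 7.66% of them had at least as many CG dinucleotides as the upstream stretch.

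Lhx1 was detected in 4 cells (6.25%, 1.73% to 15.2%), at 219 TPM in cell 61, 79.1 TPM in cell 51, 4.81 TPM in cell 54 and 1.19 TPM in cell 14. All 4 held Reln and 3 of them Trp73, cell 61 being the exception. Lhx1os, a non-coding RNA gene named here because its levels were among the 5 most like those of Trp73, was detected in 6 cells, and all 6 were cells with Trp73. It had 184 TPM in cell 51, 151 TPM in cell 54, 60.1 TPM in cell 63, 43.9 TPM in cell 69, 31.1 TPM in cell 14 and 18.0 TPM in cell 5. It was listed at 0 in the other 3 cells with Trp73 and in each of the 55 cells without it, where 0 of 55 allows up to 5.45% of cells with a read, not of cells that express it. In 3 of its 6 cells Lhx1 was detected as well. Lhx1os and Lhx1 lie head to head on opposite strands with 124 bases between them in GENCODE's GRCm38 annotation, so their exons do not share bases. The stretch before the Lhx1 start, chr11:84525535-84525684 on the minus strand of GRCm38.p6, is shown because it lies on the side that faces Lhx1os. It held 15 CG dinucleotides, marked by capitals.
Lhx1 start: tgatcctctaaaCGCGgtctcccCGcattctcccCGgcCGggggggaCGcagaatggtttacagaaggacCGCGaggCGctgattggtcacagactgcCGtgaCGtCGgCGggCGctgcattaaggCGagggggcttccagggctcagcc

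Lhx5 was close to the limit of detection. It reached 1 TPM in 3 cells (4.69%, 0.977% to 13.1%), with 2.18 TPM in cell 5, 1.57 TPM in cell 22 and 1.21 TPM in cell 54. These values were about 5.90, 2.95 and 0.989 reads. Another 6 cells had Lhx5 at 0.240 to 0.800 TPM, each about 1 read. Of the 3 cells, 2 held Trp73 and Reln, and cell 22 held no other member at 1 TPM.

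Calb2 was detected in 14 cells (21.9%, 12.5% to 34%), at 13.3 to 1179 TPM with a median of 168 TPM. The 7 cells that also held Trp73 had 571 TPM (cell 63), 386 TPM (cell 68), 248 TPM (cell 69), 229 TPM (cell 60), 107 TPM (cell 5), 27 TPM (cell 81) and 18.3 TPM (cell 14). The 7 cells without Trp73 had 1179 TPM (cell 57), 633 TPM (cell 80), 503 TPM (cell 49), 99.9 TPM (cell 56), 58 TPM (cell 47), 44.1 TPM (cell 46) and 13.3 TPM (cell 73). The levels of Calb2 in these 2 sets of cells overlapped over nearly their whole range, so its level did not separate them. Cells 51 and 54, which had Trp73, Reln and Lhx1, were listed at 0 for Calb2.

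**Figure D1:**
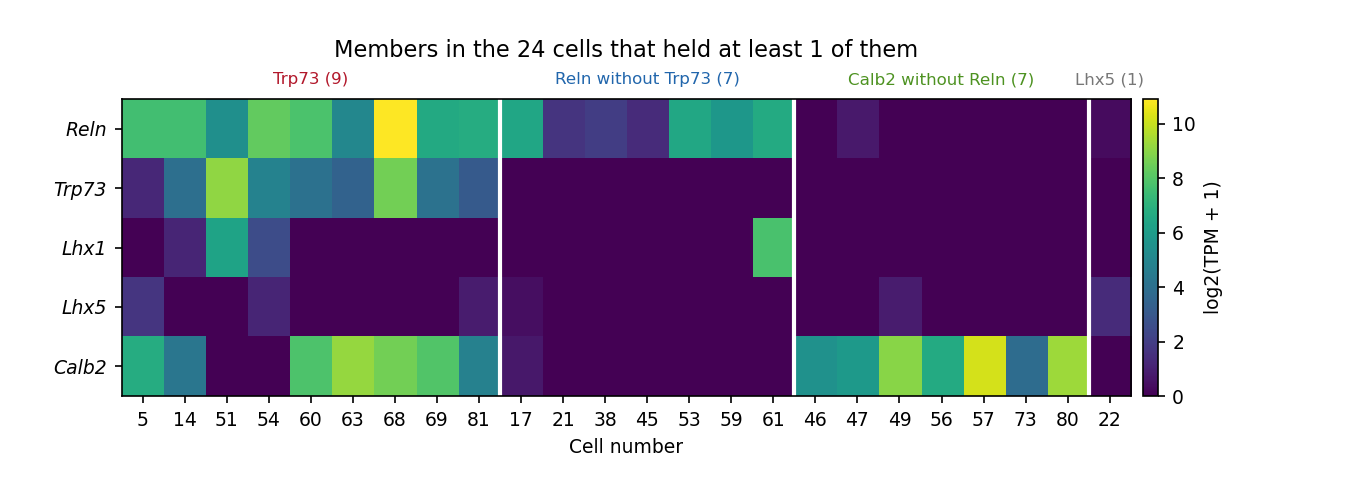
Levels of the 5 members, as log2(TPM + 1) by colour, in the 24 cells that held at least 1 of them at 1 TPM; columns are cells, by cell number, ordered by which member they held. Reln fills all 9 columns with Trp73, while the 7 columns headed Calb2 without Reln hold Calb2 alone at 1 TPM.

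The members gathered in few cells. Of the 64 cells, 40 held none of the 5 genes, 14 held 1, 1 held 2, 6 held 3 and 3 held 4. If each gene were spread over the cells independently at its own share, 28.8 cells would hold none, 25.7 would hold 1, 8.26 would hold 2 and 1.23 would hold 3 or more, against 9 observed. The number with 2 or more members, 10 cells (15.6%, 7.76% to 26.9%), was close to the 9.49 given by the shares, so the excess lay in cells with 3 or more. The 9 cells with 3 or more were the same 9 cells as those with Trp73. The 1 cell with 2 members was cell 61, with Reln and Lhx1.

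Over the 10 pairs of members, 37 joint detections were counted against 12.2 given by the shares, a ratio of 3.04. All came from the 10 cells with 2 or more members. A cell with several members counts in several pairs, so the joint detections are not separate observations. Reln and Trp73 shared 9 cells against 2.25 (ratio 4.00), Trp73 and Calb2 7 against 1.97 (3.56), and Reln and Calb2 7 against 3.50 (2.00). Reln and Lhx1 shared 4 cells against 1.00, and Trp73 and Lhx1 shared 3 against 0.562. Pairs with Lhx5 rested on 2 cells or fewer. Lhx1 and Calb2 shared 1 cell against 0.875, a ratio of 1.14, so this pair was near the value for independent genes. Within the depth classes, 12 joint detections stood against 2.19 in the deeper libraries and 25 against 10.2 in the shallower ones, from 2 and 8 cells. The deeper class held 2 of the 9 cells with Trp73, 4 of the 16 with Reln and 2 of the 14 with Calb2. None of the 7 cells with Calb2 but no Reln was in it, so that set was seen in the shallower libraries alone. All deeper libraries have cell numbers up to 24 and all but 1 of the shallower ones have higher numbers, and whether these are separate runs or animals is not given in the labels.

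**Figure D2:**
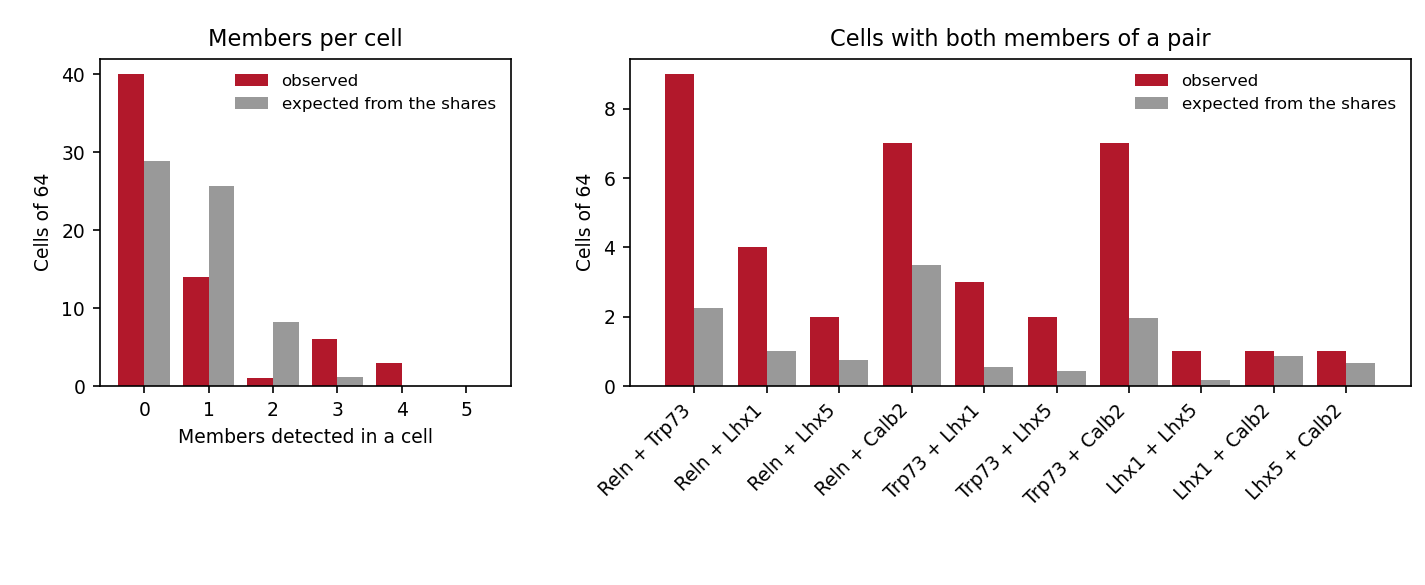
Left, number of the 64 cells that held 0 to 5 members at 1 TPM, observed and as given by the product of the members' shares; right, number of cells with both members of each pair, observed and expected in the same way. The 9 cells with 3 or more members compare with 1.23 expected, and Reln with Trp73 has 9 cells against 2.25.

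The same ratio was taken with every other gene found in 6 to 32 cells, 6859 genes for each of Reln, Trp73 and Calb2. With Reln, 3.98% of them reached a ratio of 2 or more. Trp73 and Calb2 both did. The ratio of Trp73 with Reln, 4.00, is the highest that a gene found in 16 of 64 cells allows; 2 genes reached it, Trp73 included, and 146 had a higher ratio than Calb2. With Trp73, 7.32% reached 2, as did Reln, with 16 genes above it, and Calb2, with 22 above it. With Calb2, 3.13% reached 2, as did Reln and Trp73, with 213 and 1 genes above them. The median ratio of all genes was 1.04 with Reln, 1.02 with Trp73 and 0.980 with Calb2. Lhx1 and Lhx5, found in too few cells for this background, were set only against the members that were in it. With Lhx1, where 12.7% of genes reached 2, Reln and Trp73 did and Calb2 did not. With Lhx5, where 20.5% did, Reln and Trp73 again did and Calb2 did not.

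Levels followed detection. Over all 64 cells, the Pearson correlation of log2(TPM + 1) was 0.74 between Reln and Trp73 (Spearman's rho 0.65) and 0.39 between Reln and Calb2 (rho 0.28). Among only the cells that held either gene of the pair at 1 TPM, the correlation was 0.55 for Reln and Trp73 and -0.15 for Reln and Calb2. The cells with either Reln or Trp73 included 7 with Reln and no Trp73, so the value of 0.55 still reflects detection. A correlation within the 9 cells that held both was not taken. Without the glial clusters, the correlation of Reln and Trp73 was 0.73. The order of the 2 levels varied among cells, since cell 51 had Trp73 at 548 TPM and Reln at 42.7 TPM, while cell 68 had Reln at 1909 TPM and Trp73 at 379 TPM.

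**Figure D3:**
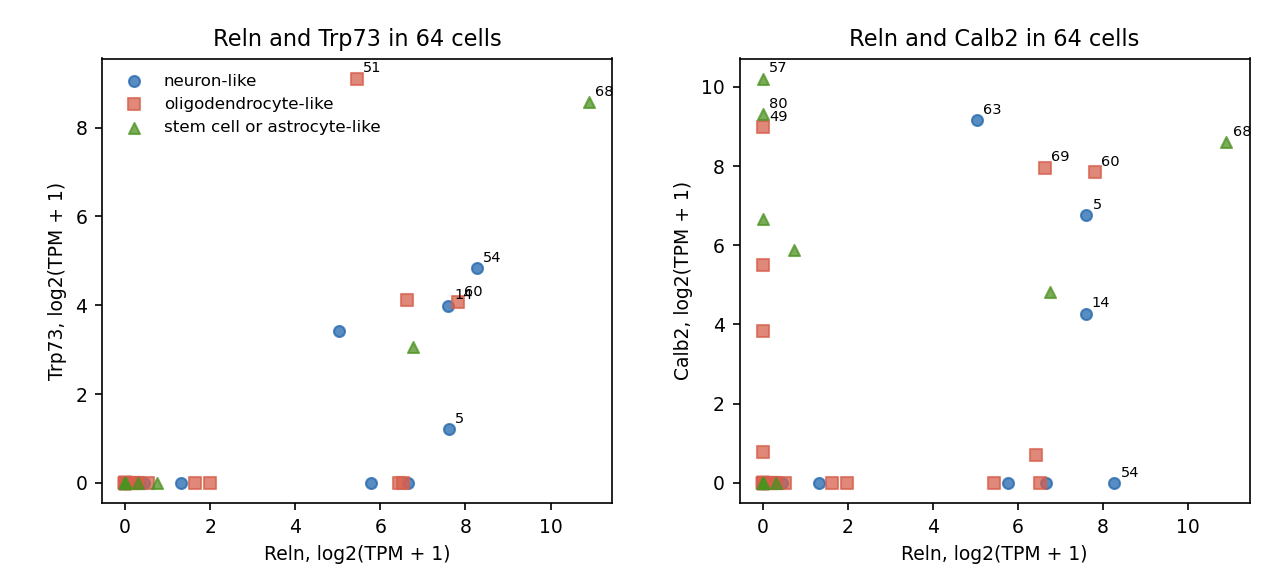
Reln against Trp73 (left) and against Calb2 (right) in the 64 cells, both axes as log2(TPM + 1); each point is a cell, its shape and colour give its cluster, and cells with high values carry their number. All 9 cells with Trp73 lie to the right, at 31.6 TPM of Reln or more, whereas Calb2 has high cells with Reln and high cells without it.

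The genes most like Trp73 by Spearman's rho, among 11116 genes found in at least 6 cells, were Slc17a6 (0.81), Ndnf (0.80), Lhx1os (0.79), Nhlh2 (0.77) and Cdkn1c (0.68). Slc17a6 encodes the vesicular glutamate transporter VGLUT2, Ndnf a secreted protein found in Cajal-Retzius cells and in some interneurons, Nhlh2 a basic helix-loop-helix transcription factor, and Cdkn1c a cyclin-dependent kinase inhibitor. Ndnf was detected in 9 of 9 cells with Trp73, at 4.31 to 534 TPM, and in 4 of the 55 other cells, at 13.0 TPM or less. Slc17a6 was detected in 7 of 9, at up to 283 TPM, and in 2 of the 55 others, at 5.81 TPM or less. For both, the highest cell without Trp73 was below the median of the cells with it, 139 TPM for Ndnf and 43.7 TPM for Slc17a6. The genes were picked by their rho with Trp73 over these same cells. A split between cells with and without Trp73 therefore follows from that choice and adds no separate support. Nhlh2 was detected in 7 of 9 and in 2 of 55, one of which was cell 61 at 120.2 TPM, and Cdkn1c in 5 of 9 and 2 of 55.

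Reln had Ndnf (0.66), Trp73 (0.65), Ccdc114 (0.64), Nhlh2 (0.60) and Slc17a6 (0.60) as its nearest genes, of which Ndnf, Nhlh2 and Slc17a6 were also among the 5 nearest to Trp73. The genes nearest to Calb2 were less alike: Flrt1 and Cep350 (both 0.50), Hyls1 (0.49), Trp73 (0.48) and Rbms3 (0.48). The labels give no chip run or animal that could be separated. Over the cells with either gene above 0, rho was 0.71 for Reln with Trp73 (26 cells) and 0.69 for Reln with Ndnf (28 cells). It was 0.57 for Reln with Nhlh2 and with Slc17a6, and 0.25 with Ccdc114 (27 cells each). For Trp73 it was 0.50 with Slc17a6 (12 cells), 0.43 with Ndnf (14 cells) and 0.39 with Lhx1os (9 cells). It was 0.09 for Trp73 with Cdkn1c (11 cells) and 0.04 with Nhlh2 (12 cells). For Calb2 it was 0.38 with Cep350 and -0.16 to 0.08 with the other 4 genes.

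Other Cajal-Retzius genes were counted from a list of 18, of which 16 were detected in at least 1 cell and 9 in 6 to 32 cells. Of these 9, 6 had a ratio of 2 or more with Trp73 (Ndnf, Nhlh2, Cacna2d2, Rspo3, Car10 and Tbr1), with a median ratio of 2.22 over the 9, beside 7.32% and 1.02 over all genes. The list was chosen with earlier results of these data known, so this is not independent support. The counting interval of the ratio included 1 for Rspo3 (0.843 to 4.62), Car10 (0.735 to 4.92) and Tbr1 (0.248 to 7.05). It lay above 1 for Ndnf, Nhlh2 and Cacna2d2. Cacna2d2, which encodes a calcium channel subunit, was detected in 7 of 9 cells with Trp73 and 4 of 55 without, and Rspo3, a secreted activator of Wnt signalling, in 6 of 9 and 13 of 55. Car10 was detected in 5 of 9 and 11 of 55, and Tbr1, a transcription factor of glutamatergic neurons, in 2 of 9 and 5 of 55. Cxcr4, the receptor of the chemokine Cxcl12, was detected in 5 of 9 and 15 of 55, Spock1 in 3 of 9 and 11 of 55, and Eomes, a transcription factor of intermediate progenitors, in 1 of 9 and 5 of 55. Nr2f2, an orphan nuclear receptor gene, was in 9 of 9 cells with Trp73 but also in 30 of 55 without. Ebf3, found in 5 cells, was in 3 of 9, at up to 79.6 TPM, and in 2 of 55. Kcnip2 was in 7 of 9 and 31 of 55. Zic1, found in 4 cells, and Ebf2 and Barhl2, found in 1 cell each, were in none of the 9. Without the glial clusters, 4 cells with Trp73 and 16 others remained: Ndnf was in 4 of 4 and 2 of 16, Slc17a6 and Nhlh2 each in 4 of 4 and 1 of 16, and Lhx1os in 4 of 4 and 0 of 16. Cacna2d2 was then in 3 of 4 and 2 of 16, and Rspo3 in 3 of 4 and 4 of 16, whereas Car10 was in 1 of 4 and 5 of 16 and Tbr1 in 0 of 4 and 2 of 16.

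**Figure D4:**
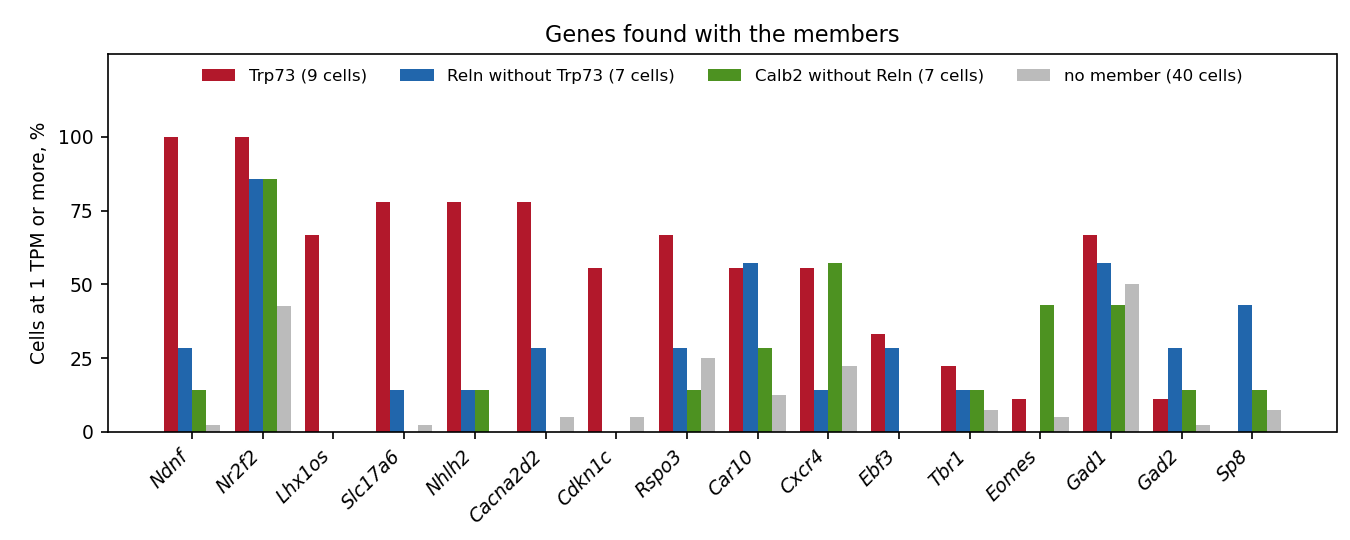
Share of cells, in percent, with each gene at 1 TPM or more among the 9 cells with Trp73, the 7 with Reln but no Trp73, the 7 with Calb2 but no Reln, and the 40 with no member. Ndnf and Nr2f2 reach all 9 cells with Trp73, and Lhx1os appears in these cells only.

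The 7 cells with Reln but no Trp73 were not alike. Cell 61 had Lhx1 at 219 TPM, Nhlh2 at 120.2 TPM, Reln at 99.5 TPM and Ebf3 at 27.8 TPM. Cell 17, with Reln at 85.3 TPM, had Ndnf at 13.0 TPM, Slc17a6 at 5.81 TPM and Ebf3 at 3.07 TPM. Cell 53, with Reln at 91.0 TPM, instead had Htr3a, a serotonin receptor gene of one class of interneurons, at 1265 TPM, the GABA-synthesis genes Gad1 and Gad2 at 815 and 154 TPM, and Sp8, an interneuron transcription factor, at 120.5 TPM. Cell 59, with Reln at 53.5 TPM, had the granule neuron genes Calb1 and Prox1 at 743 and 80.3 TPM and no Ndnf, Nhlh2 or Gad1. Cells 21, 38 and 45 had Reln under 3 TPM. Cell 61 also had Gad1, Calb1 and Prox1, at 130.4, 123 and 83.3 TPM, and cell 53 had Prox1 at 482 TPM, so these genes did not separate the cells. Of the 16 GABAergic genes, 13 were detected in at least 1 cell, and they did not all go one way. Gad2 and Sp8 were detected in 2 and 3 of these 7 cells, against 1 and 0 of the 9 cells with Trp73, while Gad1 was in 4 of 7, against 6 of 9, and Nr2f2 in 6 of 7, against 9 of 9. Sst, Lhx6 and Slc32a1 reached 1 TPM in no cell of the 64.

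The 7 cells with Calb2 but neither Reln nor Trp73 at 1 TPM varied in the other genes they held. Cell 49 had Tac2 at 3743 TPM, Vip at 2545 TPM, Gad1 at 374 TPM and Gad2 at 185 TPM, Vip and Tac2 encoding neuropeptide precursors. Cell 80 had Prox1 at 297 TPM, Eomes at 180.4 TPM and Dcx at 61.2 TPM. Cell 46 had Tac2 at 1543 TPM and Eomes at 109.9 TPM, and cell 47 had Eomes at 102 TPM and Nr2f2 at 282 TPM. Eomes was detected in 3 of these 7 cells, against 1 of the 9 cells with Trp73, and Ndnf in 1 of 7, against 9 of 9. Cell 57, with the highest Calb2, had Dab1 at 852 TPM and Lrp8 at 96.3 TPM, cell 56 had Ndnf at 3.66 TPM, and cell 73 had Gad1 at 42.3 TPM and an oligodendrocyte sum of 19881 TPM. The summed level of 10 stem cell or astrocyte markers spanned 229 to 20728 TPM over these 7 cells with a median of 15571 TPM, against 179 to 25975 TPM with a median of 621 TPM in the 9 cells with Trp73. The part of that signal in the split of Calb2 was not tested. Of the mossy cell list, Calcrl was in 5 of the 7 cells, against 5 of 9 with Trp73, Satb1 in 3 of 7, against 3 of 9, and Nmb in 1 of 7, against 1 of 9. Ociad2 and Ajap1 were in none of the 7, against 3 of 9 each. Grik4 and Slc17a6 were also in none of the 7, against 2 and 7 of 9. Csf2rb2 was in no cell of either set, and Drd2 and Glipr1 reached 1 TPM in no cell. Among the 40 cells with no member, Calcrl was in 17, Ociad2 in 16 and Satb1 in 10.

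Genes of reelin reception were found in many cells without Reln. Vldlr was detected in 40 cells, 6 of them among the 9 with Trp73, and Lrp8 in 25, 5 of them among the 9. Dab1, the intracellular adaptor, was detected in 53 cells, 7 among the 9, with its highest level of 1040 TPM in a cell without Trp73. Of the 19 genes of the reelin list, 18 were detected in at least 1 cell and 7 in 6 to 32 cells. Of these 7, only Socs7 had a ratio of 2 or more with Trp73, beside 7.32% of all genes. In the p53 family, Trp53 was detected in 29 cells, 4 of them with Trp73, and Trp63 in 1 cell without Trp73. Of the other 12 LIM-homeodomain and cofactor genes only Lhx2, Lhx9, Ldb1 and Ldb2 were detected, in 42, 15, 23 and 10 cells. None of the 3 in 6 to 32 cells reached a ratio of 2 with Trp73, beside the same 7.32% of all genes. Calb1, the calcium buffer of mature granule neurons, was detected in 50 cells, and Pvalb in none.

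The cells with Trp73 did not fall into 1 cluster when the cells were grouped by genes other than the members. Of the 9, 4 were in the neuron-like cluster (20 cells), 3 in the oligodendrocyte-like cluster (33 cells) and 2 in the cluster named from stem cell and astrocyte markers (11 cells). Reln was detected in 7 of 20, 7 of 33 and 2 of 11 cells of these clusters, Calb2 in 3 of 20, 5 of 33 and 6 of 11, and the median of Reln was 0 TPM in each. With the 2000 most variable genes, the clusters of the same names held 5, 3 and 1 of the cells with Trp73. Cell 68, with the highest Reln, was then neuron-like instead of with the stem cell and astrocyte markers. Of the pan-neuronal list, Stmn2, a gene of growing neurons, was in 9 of 9 cells with Trp73 and in 17 of 55 without. Elavl4 was in 8 of 9 and 19 of 55. Nefl went the other way, in 4 of 9 and 33 of 55. The rest differed less: Snap25 was in 9 of 9 and 55 of 55, and Map2 in 9 of 9 and 54 of 55. Syt1 was in 9 of 9 and 47 of 55, and Syp in 8 of 9 and 43 of 55. Rbfox3 was in 6 of 9 and 34 of 55, Tubb3 in 6 and 28, and Nefm in 6 and 29. Dcx, whose promoter drives the reporter, was detected in 4 of 9 and 20 of 55, and genes detected ranged from 3716 to 7480, against 3644 to 6595 in the 40 cells with no member.

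Transcripts of glia were present in cells with Trp73. The summed level of 10 oligodendrocyte markers was 27.8 to 35869 TPM over the 9 cells, with 31725 TPM or more in cells 51, 60 and 69, and 0.860 to 132427 TPM over the 40 cells with no member. The sum of 10 stem cell or astrocyte markers was 179 to 25975 TPM over the 9 cells, with the highest value in cell 81, and 9.83 to 34052 TPM over the 40. The sum of 10 pan-neuronal markers was 343 to 8623 TPM over the 9 and 14.4 to 11281 TPM over the 40. The ranges overlapped, but the medians differed. The median oligodendrocyte sum was 1324 TPM over the 9 and 23950 TPM over the 40. For the stem cell or astrocyte sum the medians were 621 and 2706 TPM, and for the pan-neuronal sum 4858 and 2863 TPM. No doublet caller was run, and the part of joint capture or carried-over RNA in these libraries was not tested. Without the cells of both glial clusters, the 10 pairs had 22 joint detections, from 5 cells, against 6.85, a ratio of 3.21. Reln was still in all 4 remaining cells with Trp73.

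**Figure D5:**
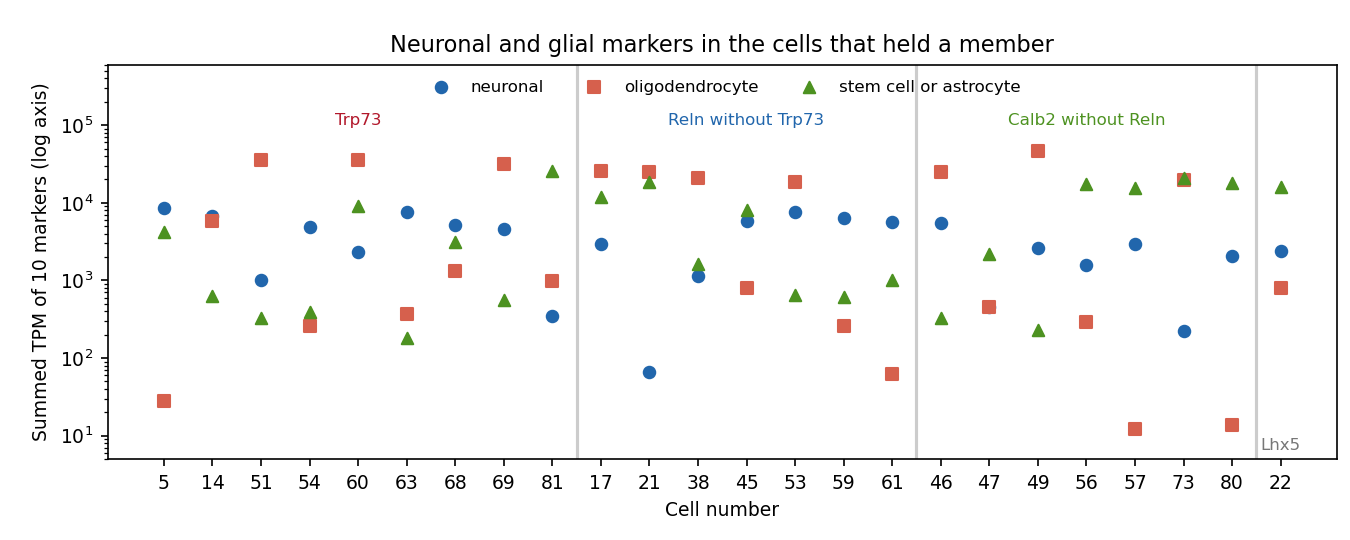
Summed TPM of 10 neuronal, 10 oligodendrocyte and 10 stem cell or astrocyte markers, on a log axis, in each of the 24 cells that held a member; cells are ordered as by member held. Cells 51, 60 and 69 had Trp73 together with oligodendrocyte sums of 31725 TPM or more, and cell 81 with an astrocyte sum of 25975 TPM.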

How the data were processed

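Polyadenylated RNA of 64 single cells was amplified on a microfluidic chip and made into Nextera XT libraries, per the labels' protocols. Bowtie2, RSEM and the mouse build mm9 are named in the submitters' processing notes, without versions. The deposited values are headed RSEM expected counts, but they sum to the fixed total of TPM in every cell and were read as TPM, so no count model was fitted. Values were summed per symbol; 1037 of the 30970 transcripts had no symbol and were left out, and 48 symbols turned into numbers were restored through RefSeq. Depth was estimated as the value at which TPM times GENCODE M21 transcript length piles up at 1 read: 69.5% to 77.9% of values between 0.5 and 1.5 reads lay within 10% of 1 read, against 20% if spread evenly. The estimate and the ratio were tested on simulated data.

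Joint detection was set against the product of the members' shares. Clusters came from Ward linkage after principal component analysis (10 components) of the 1000 genes with the most variable log2(TPM + 1), members left out, with 3 clusters chosen from 2 to 6 by mean silhouette, which was flat at 0.248 to 0.262 (scikit-learn 1.9.0, scipy 1.17.1, Python 3.11.15). They were named from marker lists, and no doublets were removed. Named genes were the members, the listed genes and the 5 genes nearest each member found in at least 6 cells. Cells named beyond these were those holding a member, and the genes given for them were chosen after their values were seen. Members and lists were chosen with earlier results of these data known. Alternatives were other detection thresholds, depth classes, leaving out glial clusters or each member, pseudocounts and numbers of variable genes.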

Additional observations from a re-analysis of the deposited data

How the results depend on the processing

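The ratio over the 10 pairs stayed above 1 under all 12 alternatives run. It was 1.97 with any value above 0 TPM counted, which admits cells with about 1 read, and 5.48 in the deeper libraries, which held few member cells. The ratio of Reln with Trp73, whose alternatives were chosen after seeing the data, was 2.46 to 5.25, and their correlation of 0.74 was 0.55 among cells with either gene. Without the glial clusters, the ratio with Trp73 was 0.833 for Car10 and 0 for Tbr1 and Eomes, on 1, 0 and 0 shared cells. Reln with Calb2 was less stable: its ratio of 2.00 had a counting interval of 0.825 to 3.88, it was 5.25 in the deeper libraries on 2 shared cells and 1.38 with any value above 0, and its correlation was 0.85 in the deeper libraries and -0.15 among cells with either gene. Cells with 2 or more members numbered 2 in the deeper libraries and 5 without glial clusters, and those with 3 or more numbered 2 and 4, since fewer cells entered. With the 500 most variable genes no cluster was neuron-like, so its count of cells with Reln could not be given. With 2000 the neuron-like cluster held 8 cells with Reln against 7, cell 68 among them. The results without the glial clusters used the main grouping and so left cell 68 out. No paired analysis was possible because the labels give 1 group. Detection of Lhx5, and of Trp73 in cell 5, is limited by depth.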

Other observations

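Of 6859 genes found in 6 to 32 cells, 34 (0.496%) had at least 50% of their cells among the 9 with Trp73. Genes below were picked after their values were seen and are given as values only. Utrn, which is not one of the 34, encodes the dystrophin relative utrophin and was detected in 9 of 9 cells with Trp73, at a median of 33.1 TPM, and in 10 of the 55 others, at 24.1 TPM or less. Rbms3, an RNA-binding protein gene, was detected in 7 of 9 and 7 of 55, Mia in 6 of 9 and 4 of 55, and Kcnc2, a potassium channel gene, in 6 of 9 and 5 of 55. Maml3, a coactivator of Notch signalling, was detected in 5 of 9 and 4 of 55. Unlike for Utrn, the highest level outside the 9 cells exceeded the median in them. It was 75.3 against 10.9 TPM for Rbms3 and 334 against 50.1 TPM for Mia. For Kcnc2 it was 102 against 2.02 TPM, and for Maml3 12.3 against 2.14 TPM.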
